A study of Mus musculus with 40 samples.

Results

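The let-7 family guide strands are the 10 mature microRNAs of the mouse let-7 and miR-98 hairpins that are cut from the 5p arm, together with let-7j, and they were taken by name from a table of 1915 mature microRNAs. Of these 10 members, 8 passed the filter of more than 100 reads in 50% of the libraries, which left 105 microRNAs for testing. Small RNA was sequenced from total blood of male C57B/6J wild-type mice at an age of 12 months and then at 13.5 months, 15 months and 16.5 months, with 10 libraries per age and 40 libraries in all. The mice were single housed, carried no transgene, and were bled from the orbital sinus every 6 weeks in a study of spatial memory in the water maze. The paper describes the 12-month bleeding both as before behaviour and as after habituation, and the labels do not say whether a library came from trained mice or from mice kept in the home cage, so that maze experience and age cannot be told apart here. Nor do the labels tie a library to an animal. The columns of the count table open with the same 10 numbers at every age, and the sources used here do not say what these stand for. The tests therefore treated the 40 libraries as independent, although the same animals were followed over time.

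MicroRNAs guide Argonaute proteins to messenger RNAs by pairing through the seed, bases 2 to 8 from the 5′ end. The let-7 family is known for its rise during development and for holding back growth and stem-cell genes such as Lin28a, Hmga2 and the Ras genes, and LIN28 proteins in turn block the processing of let-7 precursors. In adult tissues, blood cells included, the family is abundant, and several hairpins give rise to the same or nearly the same guide.

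The sequences are shown because the members differ from each other by few bases, which bears on how their reads can be told apart. They were taken from RefSeq (GRCm38.p6), where 10 of 10 names matched. The seed is in capitals, and the first 9 share it:
mmu-let-7a-5p: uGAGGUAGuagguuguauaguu
mmu-let-7b-5p: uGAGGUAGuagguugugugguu
mmu-let-7c-5p: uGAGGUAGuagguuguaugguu
mmu-let-7d-5p: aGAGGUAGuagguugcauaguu
mmu-let-7e-5p: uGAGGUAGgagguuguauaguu
mmu-let-7f-5p: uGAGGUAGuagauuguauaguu
mmu-let-7g-5p: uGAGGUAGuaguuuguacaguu
mmu-let-7i-5p: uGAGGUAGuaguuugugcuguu
mmu-miR-98-5p: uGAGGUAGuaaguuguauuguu
mmu-let-7j: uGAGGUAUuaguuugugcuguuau

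Among the 1679 mature names of the RefSeq table, 2 others carry the seed of the first 9 members, let-7k and miR-1961, and 1 other, miR-202-3p, carries that of let-7j. With positions counted from 1 at the 5′ end and the base of let-7a-5p first, let-7c-5p differs by A19G, let-7e-5p by U9G, let-7f-5p by G12A and let-7d-5p by U1A and U16C. Compared with let-7i-5p, let-7j differs by G8U and is longer by 2 bases, at 24 against 22. Any of the 45 pairs of members differs at 1 to 7 positions, and 5 pairs differ at 1. Reads as short as 18 bases were kept, and 1 pair, let-7a-5p and let-7c-5p, has the same first 18 bases. Counts of these near-identical members are uncertain to the extent that short or misread bases moved reads between them.

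The 10 members come from 13 hairpin genes (GENCODE M21, GRCm38). Mirlet7a-1, Mirlet7f-1 and Mirlet7d lie together on chromosome 13, on the minus strand, at 48538179 to 48538272, 48537829 to 48537917 and 48536012 to 48536114, in exons of the noncoding RNA gene 6720427I07Rik. Mirlet7c-2 and Mirlet7b lie side by side on chromosome 15 (85706603 to 85706697 and 85707319 to 85707403, plus strand) in exons of Lncppara, and Mirlet7f-2 and Mir98 on chromosome X (151912346 to 151912428 and 151913214 to 151913321, plus strand) in an intron of the ubiquitin ligase gene Huwe1. Mirlet7a-2 (chromosome 9, 41536716 to 41536811, plus strand) is intronic to 3110039I08Rik and has Mir100 within 10 kb. Mirlet7c-1 (chromosome 16, 77599657 to 77599750, plus strand) is intronic to Mir99ahg and has Mir99a within that distance, and Mirlet7e (chromosome 17, 17830352 to 17830444, plus strand) is intronic to Spaca6 and has Mir99b and Mir125a. Mirlet7g (chromosome 9, 106178840 to 106178927, plus strand) is intronic to Wdr82, Mirlet7i (chromosome 10, 122985640 to 122985724, minus strand) is in an exon of the pseudogene D630033A02Rik, and Mir7j, the let-7j hairpin (chromosome 3, 140028249 to 140028370, plus strand), overlaps no other annotated gene.

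The libraries held 2469196 to 21386209 counts, most of them miR-486-5p, a microRNA of red cells, whose reads are entered in identical rows for miR-486a and miR-486b. Counts outside miR-486 numbered 590397 to 1425543 at 12 months, 333993 to 1739959 at 13.5 months, 114748 to 412457 at 15 months and 93002 to 1187944 at 16.5 months. The label of blood was met by its markers: the 5 red-cell microRNAs of the list summed to 908900 to 982500 CPM (counts scaled to equal library totals). Both this sum and the library totals count the miR-486-5p reads in each of the 2 identical rows. Of the 4 red-cell microRNAs that were tested 3 changed over age, 2 of them the identical miR-486 rows. Of the 4 myeloid and 3 lymphoid microRNAs, 2 each were tested, and 0 and 2 changed. Of all 105 microRNAs tested, 61% changed over age. The platelet and endothelial list, miR-126a, reached at most 7.13 CPM, the liver microRNA miR-122-5p at most 0.171 and the brain microRNAs miR-124-3p and miR-9-5p together at most 0.405, and none of these 3 lists had a member past the filter. Column names of the count table take another form at 13.5 and at 15 months than at 12 and 16.5 months, so that whatever this form stands for cannot be told apart from those ages. In bulk blood, fewer cells of a type and less RNA per cell cannot be told apart either.

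The 10 members together held 1.89 to 2.50% of the counts outside miR-486 at 12 months (mean 2.08% ± 0.188, SD of 10 libraries). The share ran from 1.65 to 3.48% at 13.5 months (2.41% ± 0.542), from 1.21 to 1.76% at 15 months (1.52% ± 0.198) and from 1.47 to 2.08% at 16.5 months (1.79% ± 0.224). The 15-month libraries all lay below the 12-month libraries, and the 13.5-month libraries were the most spread. In level (log2 CPM), 0 of the 8 tested members separated 12 and 15 months, beside 0.952% of the 105 microRNAs tested. In raw counts, the family sum ran from 1761 to 6436 at 15 months against 11404 to 35196 at 12 months. These sums are a description and were not tested.

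Over the 4 ages, 7 of the 8 tested members passed a threshold of 0.05 on the adjusted p (quasi-likelihood F-test of edgeR, adjusted over 105 microRNAs), beside 61% of all microRNAs tested. let-7i-5p had the smallest p of the members (adjusted p = 3.11e-09, rank 4 of 105), followed by let-7j (2.64e-07) and let-7d-5p (5.13e-06). let-7f-5p did not pass (adjusted p = 0.0619), although it did with median-ratio factors (0.0415), DESeq2 (0.0275) and limma voom (0.0300). It also passed with a block on the number that opens the column names. The age means did not run in 1 direction: 6 members had their highest mean at 13.5 months and the other 2, let-7a-5p and let-7f-5p, at 12 months. Means were lowest at 15 months for 5 members, at 16.5 months for let-7i-5p and let-7j and at 13.5 months for let-7f-5p.

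**Figure D1:**
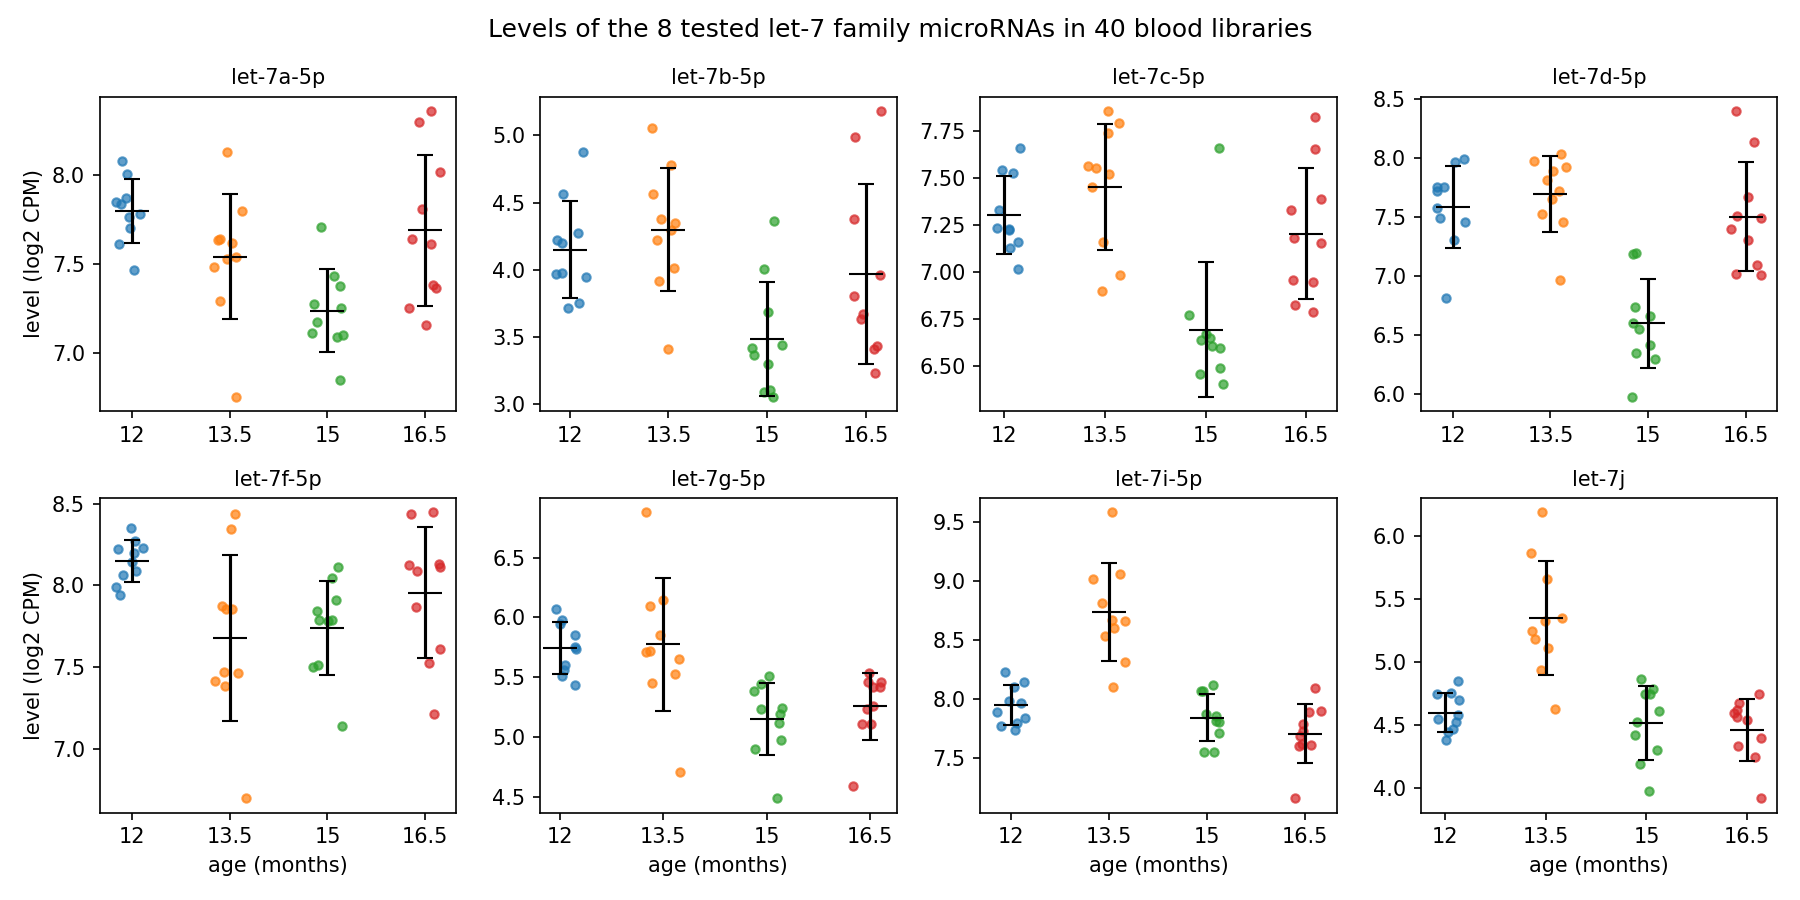
Level of each of the 8 tested members (log2 CPM with TMM factors) in every library by age in months; points are libraries, bars the mean and SD of 10. let-7i-5p and let-7j stand highest at 13.5 months, and let-7d-5p stands lowest at 15 months.

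let-7i-5p, the most abundant member on average, rose at 13.5 months and was back near its 12-month level afterwards. Its level (log2 CPM) had a lowest, median and highest value of 7.74, 7.93 and 8.23 at 12 months, 8.11, 8.67 and 9.58 at 13.5 months, 7.55, 7.84 and 8.12 at 15 months, and 7.16, 7.71 and 8.09 at 16.5 months. The 13.5-month libraries were the highest by median, and their range met those at 12 and 15 months. It did not meet that at 16.5 months, by a narrow gap (lowest 8.106 against a highest of 8.091). Such a separation of these 2 ages is seen for 6.67% of the 105 microRNAs tested. From 12 to 13.5 months let-7i-5p rose by 0.83 log2 (SE 0.13, adjusted p = 1.89e-06, edgeR, 10 of 10 libraries above the 12-month mean). From 13.5 to 15 months it changed by -0.93 (SE 0.13, adjusted p = 2.26e-07, edgeR), and at 16.5 against 13.5 months the change was -1.06 (SE 0.13, adjusted p = 1.51e-08). Against 12 months, the 15- and 16.5-month differences of -0.10 (SE 0.13) and -0.23 (SE 0.13) did not pass.

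let-7j had the same ages of rise and fall at lower counts. Levels at 12 months were 4.38, 4.56 and 4.85 (lowest, median and highest log2 CPM), and at 13.5 months 4.62, 5.28 and 6.18. At 15 months they were 3.97, 4.57 and 4.87 and at 16.5 months 3.92, 4.55 and 4.74. The rise from 12 to 13.5 months was 0.81 log2 (SE 0.14, adjusted p = 1.22e-05, edgeR, 10 of 10 libraries), and the changes from 13.5 months were -0.88 (SE 0.14, adjusted p = 2.62e-06) at 15 months and -0.93 (SE 0.14, adjusted p = 1.11e-06) at 16.5 months. Per 100 counts of let-7i-5p the counts of let-7j, as means ± SD of 10 libraries in order of age, were 9.77 ± 0.772, 9.56 ± 0.976, 9.94 ± 1.11 and 10.6 ± 1.46, and the ratio stayed between 7.68 and 13.1 in all 40 libraries. Of the 28 pairs of tested members, this pair had the smallest SD of the log2 ratio over the 40 libraries, 0.16, and let-7f-5p with let-7i-5p had the largest, 0.67. Whether let-7j reads came from its own hairpin or from let-7i-5p was not tested, so the pair may not count as 2 separate measurements.

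**Figure D2:**
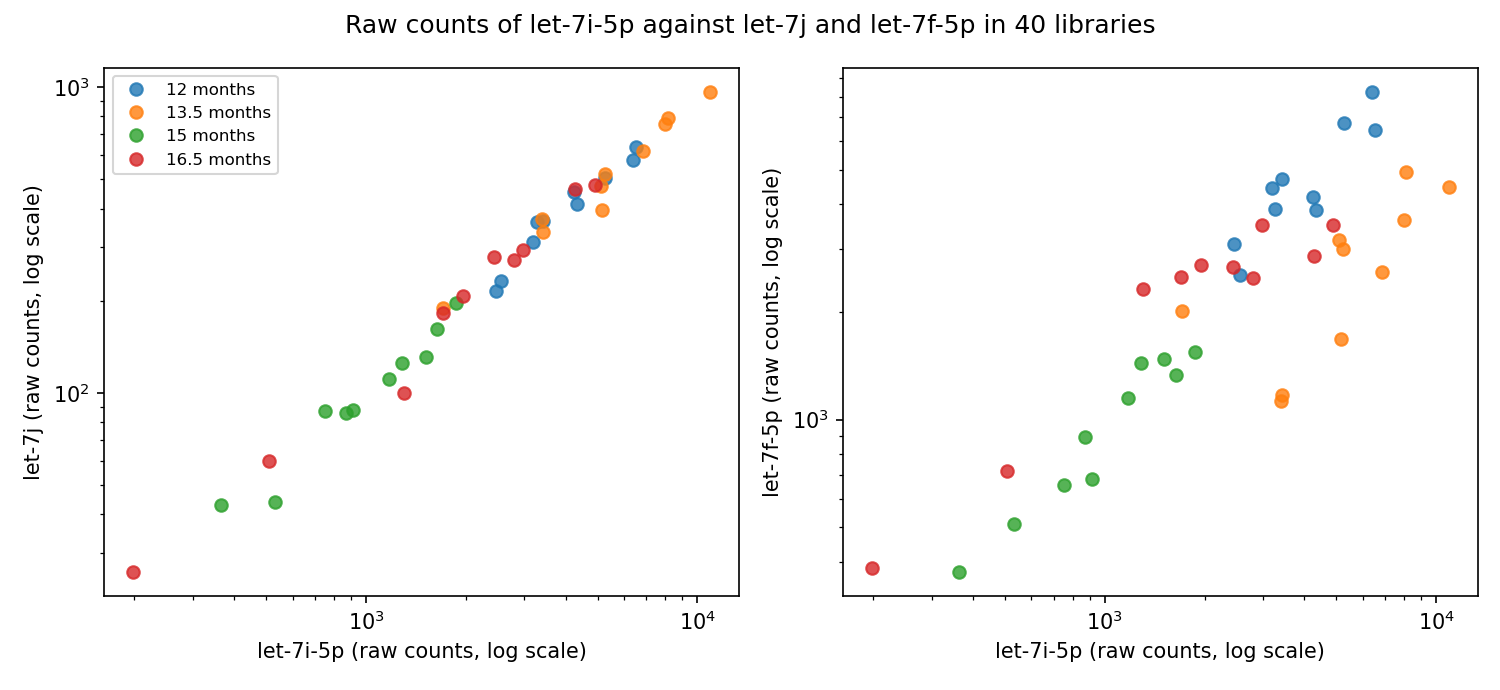
Raw counts of let-7j (left) and let-7f-5p (right) against let-7i-5p, 1 point per library coloured by age, both axes on a log scale. let-7j keeps to 7.68 to 13.1 counts per 100 of let-7i-5p at all 4 ages, whereas let-7f-5p spreads from 32.5 to 195.

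The guides of the chromosome 13 cluster, let-7d-5p, let-7a-5p and let-7f-5p, were all lower in mean level at 15 than at 12 months. So was every other tested member, and the other changes of these guides differed. let-7a-5p and let-7f-5p are also made from Mirlet7a-2 and Mirlet7f-2 on chromosomes 9 and X, so their counts are not of this cluster alone. let-7d-5p had the largest log2 fold change of the tested members in the 6 comparisons between ages, at 15 against 13.5 months. Its lowest, median and highest levels were 6.81, 7.65 and 7.99 at 12 months, 6.96, 7.77 and 8.03 at 13.5 months, 5.98, 6.58 and 7.20 at 15 months, and 7.01, 7.44 and 8.40 at 16.5 months. The 15-month libraries were the lowest, and their range met that of each other age. Relative to 12 months let-7d-5p changed at 15 months by -0.98 log2, a fold of 0.508 (SE 0.17, adjusted p = 6.38e-05, edgeR, 10 of 10 libraries), relative to 13.5 months by -1.09 (SE 0.17, adjusted p = 1.60e-06), and it rose again from 15 to 16.5 months by 0.93 (SE 0.17, adjusted p = 6.18e-05, 10 of 10 libraries).

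let-7a-5p, the best known member, had levels of 7.46, 7.81 and 8.08 at 12 months (lowest, median and highest), 6.76, 7.58 and 8.13 at 13.5 months, 6.85, 7.22 and 7.71 at 15 months and 7.16, 7.63 and 8.36 at 16.5 months. It changed from 12 to 15 months by -0.55 log2 (SE 0.14, adjusted p = 0.00365, edgeR, 10 of 10 libraries) and rose from 15 to 16.5 months by 0.49 (SE 0.14, adjusted p = 0.00817, 9 of 10 libraries). The latter call was lost with no filter (adjusted p = 0.0575) and with only the compared ages in the fit (0.0545). Between 13.5 and 15 months the difference of -0.32 (SE 0.14) missed the threshold at an adjusted p of 0.0530.

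let-7f-5p had levels of 7.94, 8.17 and 8.35 at 12 months, where the libraries lay closest together, and of 6.70, 7.66 and 8.44 at 13.5 months, where they were the most spread. At 15 months the lowest, median and highest were 7.14, 7.79 and 8.11, and at 16.5 months 7.21, 8.10 and 8.45. None of its 6 pairwise differences passed in the main edgeR fit: the differences from 12 months were -0.40 (SE 0.16, adjusted p = 0.0517) at 13.5 months, -0.39 (SE 0.16, adjusted p = 0.0693) at 15 months and -0.15 (SE 0.16, adjusted p = 0.486) at 16.5 months. Of the 6, the first 2 of these had an unadjusted p under 0.05 (0.0158 and 0.0178). The 13.5-month difference passed with DESeq2 (-0.45, adjusted p = 0.0111) and limma voom (-0.49, adjusted p = 0.0119). It also passed in edgeR with a block on the number that opens the column names, and when any 1 of 25 of the 40 libraries was left out.

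let-7c-5p and let-7b-5p, whose hairpins Mirlet7c-2 and Mirlet7b are neighbours, fell at 15 months. For let-7c-5p the lowest, median and highest levels were 7.02, 7.23 and 7.66 at 12 months, 6.90, 7.54 and 7.86 at 13.5 months, 6.41, 6.62 and 7.66 at 15 months, and 6.79, 7.17 and 7.82 at 16.5 months. The ranges at 12 and 15 months met. Of the 15-month libraries, 1 stood high (library 3, with 114748 counts outside miR-486) and the other 9 lay below every 12-month library. That library was singled out after its level was seen. The changes were -0.58 log2 against 12 months (SE 0.15, adjusted p = 0.0036, edgeR), -0.75 against 13.5 months (SE 0.15, adjusted p = 6.31e-05) and 0.50 from 15 to 16.5 months (SE 0.15, adjusted p = 0.00868, lost with no filter at 0.0545, with only the 2 ages in the fit at 0.0584 and with thinning to equal reads outside miR-486 at 0.0838).

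let-7b-5p, one of the microRNAs the study had selected for their relation to memory, was less abundant than let-7c-5p. It had levels of 3.72, 4.09 and 4.88 at 12 months, 3.41, 4.32 and 5.05 at 13.5 months, 3.06, 3.39 and 4.36 at 15 months and 3.23, 3.74 and 5.18 at 16.5 months, so that all ages overlapped. In raw counts, its 15-month libraries held 30 to 68 reads, against 173 to 593 at 12 months, so the 15-month level is less precise. The change from 12 to 15 months was -0.69 log2 (SE 0.22, adjusted p = 0.0225, edgeR, 9 of 10 libraries). That call was lost without 12-month library 7 or 8 (highest adjusted p = 0.0599), with the miR-486 rows left out (0.0590) and with every library thinned to the same number of reads outside miR-486 (0.146). From 13.5 to 15 months the change was -0.86 (SE 0.22, adjusted p = 0.00148), and that call was lost with thinning (adjusted p = 0.123).

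let-7g-5p was the one tested member whose 4 differences between a later age (15 or 16.5 months) and an earlier one (12 or 13.5 months) all passed in edgeR, each as a fall. Its levels were 5.44, 5.74 and 6.07 at 12 months and 4.71, 5.71 and 6.88 at 13.5 months, and then 4.49, 5.21 and 5.51 at 15 months and 4.59, 5.34 and 5.53 at 16.5 months. Against 12 months the change was -0.59 log2 (SE 0.16, adjusted p = 0.00634, edgeR, 10 of 10 libraries) at 15 months and -0.47 (SE 0.16, adjusted p = 0.0273, 10 of 10 libraries) at 16.5 months. Against 13.5 months it was -0.70 (SE 0.16, adjusted p = 0.000494) and -0.59 (SE 0.16, adjusted p = 0.00313). The 16.5 against 12 month call was lost without 16.5-month library 7, which had the fewest reads outside miR-486 (adjusted p = 0.0555), with library totals alone (0.225), with no filter (0.0751) and without the 4 libraries with the fewest reads outside miR-486 (0.0569).

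let-7e-5p and miR-98-5p did not reach the filter. let-7e-5p had 7 to 19 counts at 12 months, 5 to 37 at 13.5 months, 0 to 5 at 15 months and 0 to 13 at 16.5 months, and was not detected in 1 library at 15 months and in 1 at 16.5 months, where 0 counts allow a share of the family of up to 0.126% and 0.0843%. miR-98-5p had 67 to 166, 22 to 116, 4 to 38 and 3 to 127 counts at the 4 ages in turn. When the filter was lowered to 1 read exceeded in 50% of libraries, a fit that tested 345 microRNAs and called 39.1% of them over age, let-7e-5p changed over age (adjusted p = 0.00295, edgeR) and miR-98-5p did not (0.174). In that fit let-7e-5p was lower at 15 than at 12 months (-1.03 log2, SE 0.32, adjusted p = 0.0235, beside 11.3% of microRNAs called) and than at 13.5 months (-1.42, SE 0.31, adjusted p = 0.000644, beside 27% called).

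Set side by side, the 6 comparisons between ages gave different counts, and they share libraries with each other. At 13.5 against 12 months, 2 of 8 members rose and 0 fell, beside 29.5% of the 105 microRNAs called and 15.2% called higher. At 15 against 12 months, 0 rose and 5 fell, beside 23.8% called and 16.2% called lower, with a median log2 fold change of -0.57 over the members and -0.06 over all 105. At 16.5 against 12 months, 0 rose and 1 fell, beside 23.8% and 10.5%, with medians of -0.13 and -0.03. At 15 against 13.5 months, 0 rose and 6 fell, beside 47.6% and 30.5%, with medians of -0.80 and -0.02. At 16.5 against 13.5 months, 0 rose and 3 fell, beside 40% and 21.9%, with medians of -0.27 and 0.02 (6 fell without the 4 libraries with the fewest reads outside miR-486), and from 15 to 16.5 months 3 rose and 0 fell, beside 28.6% called and 19% called higher, with medians of 0.36 and 0.05.

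**Figure D3:**
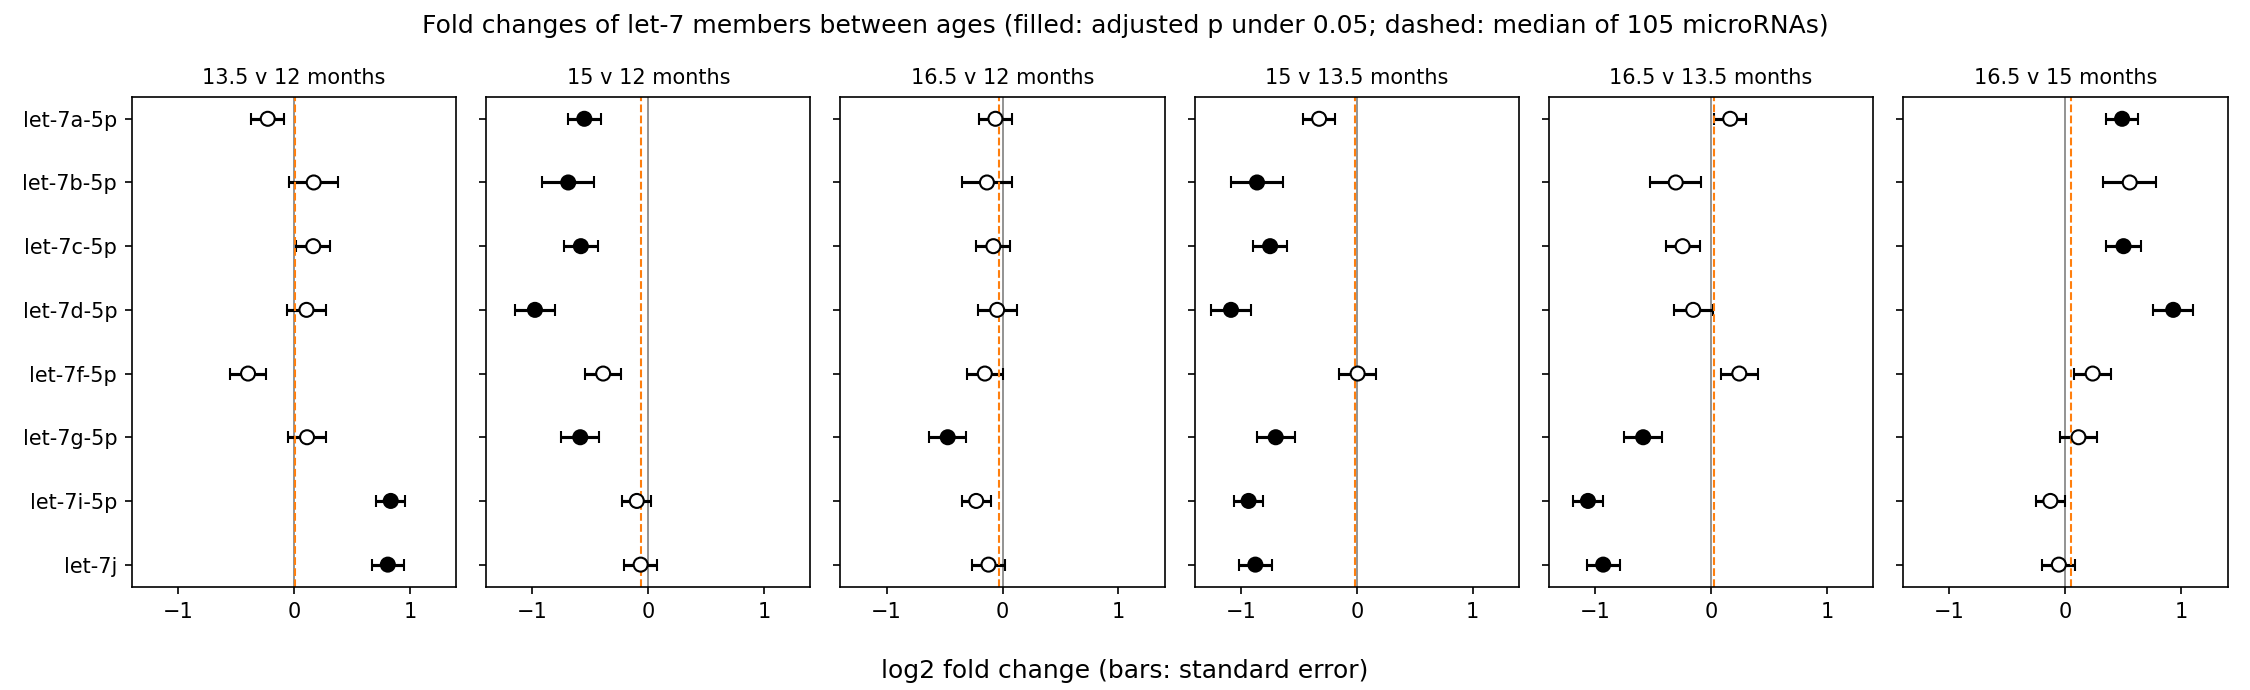
Log2 fold change of each tested member (horizontal axis) in the 6 comparisons between ages, with its standard error; filled points have an adjusted p under 0.05 and the dashed line is the median of the 105 microRNAs. At 15 against 13.5 months 6 members are filled on the left, and at 13.5 against 12 months let-7i-5p and let-7j are filled on the right.

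At 15 months the counts outside miR-486 made up a mean of 4.14% of the total, against 7.23% at 12 months, with the miR-486 rows as deposited. Raw counts of miR-486a-5p were lower as well, with means of 3056000 at 15 months and 6534000 at 12 months. Relative to the other reads, miR-486a-5p rose from 12 to 15 months by 1.01 log2 (SE 0.24, adjusted p = 0.00223, edgeR), and the identical row of miR-486b-5p with it. The other 2 red-cell microRNAs tested, miR-451a and miR-144-5p, differed there by -0.25 (SE 0.33) and -0.36 (SE 0.29), and neither passed. At 15 against 13.5 months, miR-144-5p rose by 1.24 (SE 0.30, adjusted p = 0.00059, edgeR) and miR-486a-5p by 1.02 (SE 0.24, adjusted p = 0.00059). In that comparison miR-451a differed by 0.59 (SE 0.33, adjusted p = 0.131) and did not pass. Scaled by library totals alone, the median of all 105 microRNAs moved to -0.84 log2 at 15 against 12 months and to -0.81 at 15 against 13.5 months, and the member medians to -1.35 and -1.63. The member medians thus lay below those of all microRNAs with either scaling. With the miR-486 rows left out, they were -0.47 and -0.72, against 0.03 for all microRNAs in the former comparison. At 13.5 months, where let-7i-5p and let-7j rose, the red-cell microRNA miR-144-5p changed against 12 months by -1.60 (SE 0.29, adjusted p = 3.01e-05, edgeR), miR-451a changed by -0.84 (SE 0.33, adjusted p = 0.0495), and the miR-486-5p rows differed by -0.01 (SE 0.24, adjusted p = 0.970). Of the myeloid microRNAs, miR-223-3p changed by -0.59 (SE 0.21, adjusted p = 0.0281) and miR-142a-5p differed by -0.33 (SE 0.13, adjusted p = 0.0581). The lymphoid miR-150-5p differed by 0.69 (SE 0.30, adjusted p = 0.0742), miR-342-3p differed by 0.37 (SE 0.19, adjusted p = 0.138), and neither passed. The part of blood cell makeup and depth in the members' changes was not tested.

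**Figure D4:**
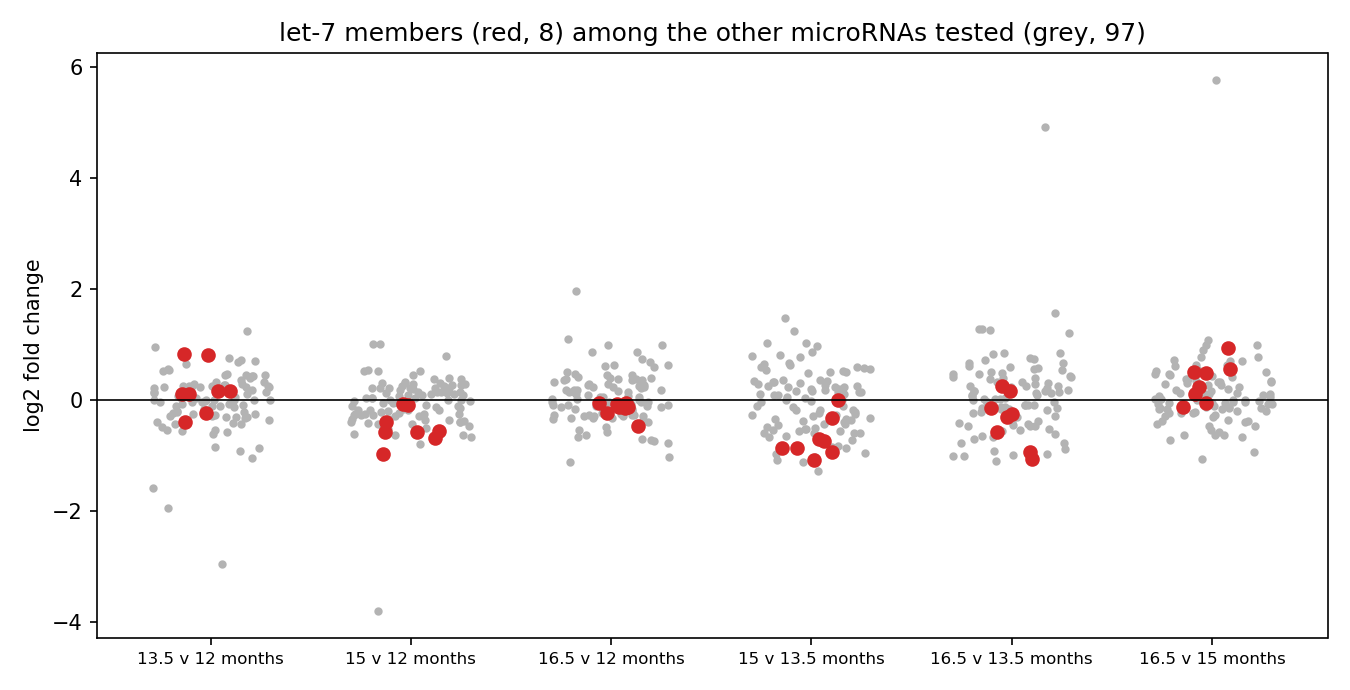
Log2 fold changes of the 8 tested members (red) and the other 97 microRNAs tested (grey) in each comparison between ages. The members lie mostly below 0 at 15 against 12 and 15 against 13.5 months, with medians of -0.57 and -0.80.

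Within the family, shares do not depend on how a library is scaled, and all mature lengths are 22 bases but for let-7j, so counts were compared without a length correction. Over all libraries let-7i-5p held the largest mean share, 24.7% ± 6.27 (SD, n = 40), ahead of let-7f-5p at 21.7% ± 4.95, let-7a-5p at 17.2% ± 2.60, let-7d-5p at 15.0% ± 3.65, let-7c-5p at 13.0% ± 1.81 and let-7g-5p at 4.09% ± 0.922. These 6 made up 95.6% of the family. let-7j held 2.43%, let-7b-5p 1.44%, miR-98-5p 0.503% and let-7e-5p, the least abundant, 0.0681%. From let-7i-5p down to let-7c-5p, each step between neighbours in this order was smaller than the larger of their SDs, whereas the step from let-7c-5p to let-7g-5p was larger.

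The leading member changed with age. let-7f-5p had the highest mean at 12 months, 23.5% ± 2.22 (SD of 10 libraries) against 20.5% ± 2.29 for let-7i-5p, with ranges of 21.04 to 27.5% and 17.6 to 24.8% that overlapped. At 13.5 months let-7i-5p led with 32.0% ± 4.31, and let-7f-5p held 15.9% ± 5.16, with 1 library at 28.5% and the others at most 19.2%. At 15 months the shares were 26.4% ± 2.96 for let-7i-5p and 24.5% ± 2.89 for let-7f-5p, and at 16.5 months 19.9% ± 5.41 and 23.0% ± 3.79, with differences smaller than the larger SD at both ages. let-7a-5p held 16.5 to 20.04% at 12 months and 11.2 to 15.7% at 13.5 months, ranges that do not meet. Nor did its 13.5-month range meet that at 16.5 months, 16.5 to 23.5%. The ranges of let-7j at 12 and 13.5 months, 1.54 to 2.36% and 2.53 to 4.07%, do not meet either. In level, 0 of the 8 tested members separated 12 and 13.5 months, beside 2.86% of the 105 microRNAs tested. Shares in a library sum to 100%, so a larger share of let-7i-5p lowers those of others. The level of let-7a-5p did not pass between these ages (-0.23 log2, SE 0.14, adjusted p = 0.23, edgeR). The share of let-7d-5p was 15.97% ± 2.31 at 12 months, 15.8% ± 3.91 at 13.5 months, 11.2% ± 2.48 at 15 months and 16.8% ± 3.12 at 16.5 months. Per 100 counts of let-7i-5p, let-7f-5p had 116 ± 18.3, 52.2 ± 25.8, 93.7 ± 11.7 and 125 ± 42.7 counts in order of age (mean ± SD of 10 libraries).

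**Figure D5:**
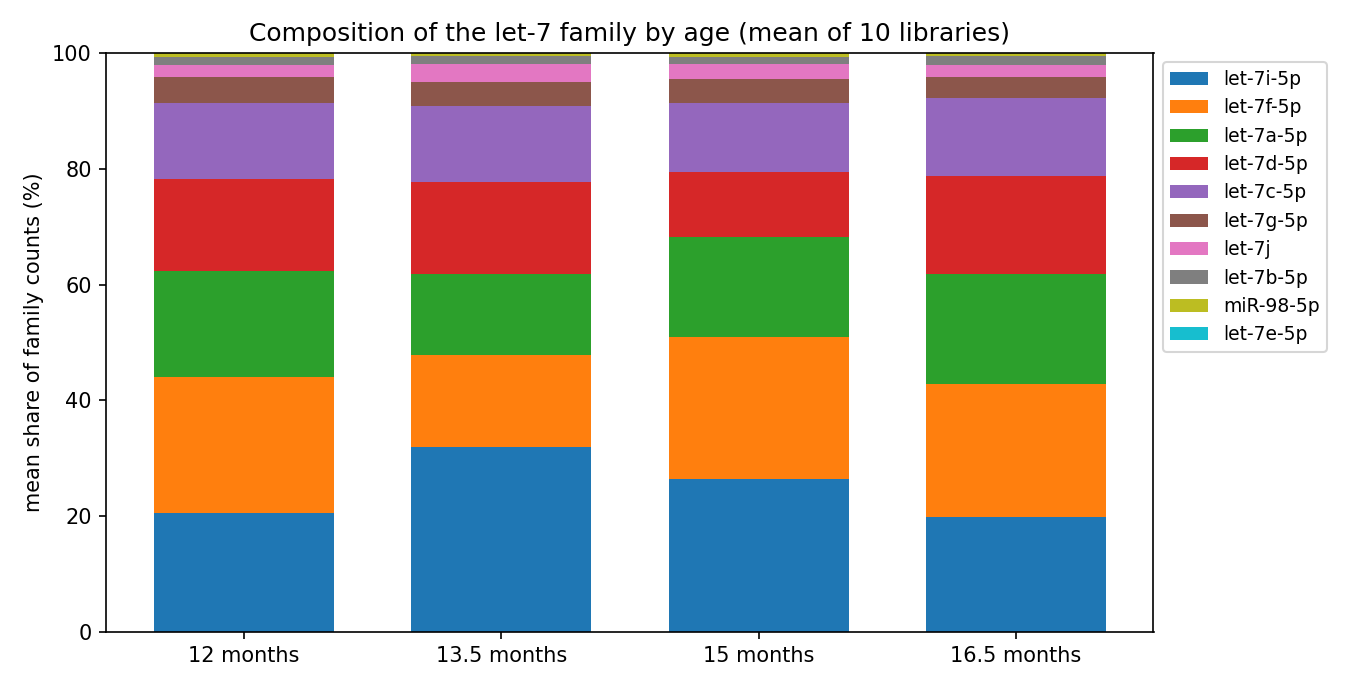
Mean percent of the family's counts held by each of the 10 members at each age (10 libraries per bar). The let-7i-5p part is largest at 13.5 months (32.0%), and the let-7d-5p part is smallest at 15 months (11.2%).

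The passenger strands, let-7k and the neighbouring microRNAs form a list of 18, of which 5 passed the filter and 1, miR-99b-5p, changed over age. Of all 105 microRNAs tested, 61% changed over age. miR-99b-5p, made from the Mirlet7e cluster, rose from 12 to 13.5 months by 0.42 log2 (SE 0.16, adjusted p = 0.0414, edgeR) and changed from 13.5 to 16.5 months by -0.71 (SE 0.16, adjusted p = 0.00036). Its cluster neighbour miR-125a-5p did not pass over age (adjusted p = 0.632). The passenger strand let-7d-3p did not pass over age either (adjusted p = 0.219), although per 100 counts of let-7d-5p it had 27.7 ± 15.6, 29.7 ± 9.35, 71.3 ± 17.3 and 38.6 ± 17 counts in order of age (mean ± SD of 10 libraries). The rows of let-7a-1-3p and let-7c-2-3p had the same summary counts at every age.

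By the root mean square difference from the member medians over the 3 comparisons with 12 months, the non-members most like the family among the 105 microRNAs were miR-320-3p (0.09), miR-23b-3p (0.12) and miR-674-3p (0.12). At 15 against 12 months they changed by -0.52 (SE 0.19, adjusted p = 0.0422), -0.43 (SE 0.12, adjusted p = 0.00634) and -0.44 log2 (SE 0.16, adjusted p = 0.0427, edgeR). This comparison was part of the choice, so their likeness to the members there follows from it.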

How the data were processed

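Per the labels and the methods of the study, blood RNA was made into TruSeq small RNA libraries and sequenced as 50 bp single-end reads, with quality checked in FastQC 0.11.5. The authors discarded reads under 18 bases, mapped them (mm10, miRDeep2, miRBase) and deposited raw counts per mature microRNA, and the stated mapping allowed 0 mismatches. A normalized table of 105 microRNAs, the raw counts times 1 constant per library, was not used. No column was without an age (0), and the columns carry no replicate number of the labels. Each row held whole counts, and the library totals given in the report set the precision, with the caveat that without molecular identifiers a read is not an independent molecule.

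Counts were tested in R 4.3.3 with edgeR 4.0.16 (TMM, glmQLFit, glmQLFTest) after a filter of more than 100 reads in 50% of libraries (20 of 40). All 40 libraries shared 1 fit with age as a factor, over age and in 6 contrasts, each adjusted by Benjamini-Hochberg over 105 microRNAs at a threshold of 0.05, and not over the contrasts. Each standard error is the size of the log2 fold change divided by the root of F. For 4 microRNAs, 0 of them members, edgeR bounded the p by a Poisson test; miR-23b-3p is one of these. Levels are log2 CPM with a prior count of 2, relative to totals that count miR-486-5p reads in both of their rows. Family sums and shares were described without a test. Members, lists, tests and named microRNAs (all members, partners past the filter, the 3 most alike) were chosen with earlier results of these data known.

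Alternatives were median-ratio factors, library totals alone, DESeq2 1.42.0, limma 3.58.1 voom, low and no filters, miR-486 rows left out, 1 factor of unwanted variation (RUVs; the study's number is not stated in the sources used here), only the compared ages, each library left out in turn, and, added after seeing the data, a block on the column-name number, the 4 libraries with the fewest reads outside miR-486 left out, and thinning to 93002 reads. The fit was tested on simulated data for 16.5 against 12 months (105 microRNAs, 30 changed by 1 log2, 10 runs) and recovered 93.33% with 5.281% false calls. The simulated libraries were independent, and each change was up or down at random. These rates therefore do not cover repeated bleeding of the same animals, other ages or smaller changes. No libraries were duplicates (smallest chi-square per degree of freedom 19.37 over 180 pairs within ages).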

Additional observations from a re-analysis of the deposited data

Results flagged for a closer look

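Within each age, the highest or lowest of the 10 libraries was set apart when its gap to the next, divided by the range, exceeded Dixon's critical value of 0.466. This was so in 9 of 76 groups of values, of which chance gives about 3.8. In level (log2 CPM), let-7c-5p was high in 15-month library 3 (7.66, next 6.77), let-7g-5p was low in 16.5-month library 7 (4.59, next 5.10), and so was let-7i-5p in that library (7.16, next 7.61). As a percent of the family, let-7c-5p was high in 15-month library 3 (18%, next 13.0%), let-7d-5p was high in 15-month library 4 (17.4%, next 13.0%) and in 13.5-month library 2 (25.0%, next 17.2%), and low in 12-month library 10 (10.5%, next 14.9%). let-7b-5p was high in 13.5-month library 1 (2.30%, next 1.65%) and let-7f-5p in 13.5-month library 5 (28.5%, next 19.2%). Of these libraries, 15-month 3 and 4 and 16.5-month 7 are among the 4 with the fewest reads outside miR-486 (114748, 183055 and 93002). The part of depth in these values was not tested.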

How the results depend on the processing

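Over age, the number of members called stayed within 1.5 times of 7 under all alternatives run. With 1 factor of unwanted variation (RUVs), 6 results of single members passed that had not passed in the main fit. More of the 105 microRNAs were called as well, 54 in place of 31 at 13.5 against 12 months and 63 in place of 42 at 16.5 against 13.5 months. At 15 against 12 months, library totals alone gave 8 members in place of 5. At 16.5 against 12 months the 1 call became 0 with library totals alone and with no filter, and leaving out 1 library gave 0 to 1. At 16.5 against 13.5 months library totals alone gave 5 and leaving out the 4 libraries with the fewest reads outside miR-486 gave 6, in place of 3. From 15 to 16.5 months library totals alone gave 6, no filter 1 and only the 2 ages in the fit 1, in place of 3. let-7f-5p at 15 against 13.5 months turned from 0.01 to -0.77 log2 with library totals alone (adjusted p = 0.0062), where the median of all microRNAs moved to -0.81. Between all 4 ages, the columns open with the same 10 numbers. Same-numbered libraries deviated together in 24 of 60 pairs (correlation over 0.1), and 12 of 120 correlated best with their own number. The median correlation was -0.03 for same-numbered libraries, against 0.008 for libraries with other numbers. Weak correlation cannot show that the numbers are not animals, and the sources used here do not say what they stand for. The main tests treated the libraries as unpaired, and the numbers were used in an added alternative. A replicate block on these numbers gave 8 members over age, and 3, 5, 1, 7, 3 and 3 in the 6 contrasts in the order of the report; with it let-7f-5p passed over age (adjusted p = 0.0363) and at 13.5 against 12 months (-0.44 log2, adjusted p = 0.0278), and let-7a-5p at 15 against 13.5 months (-0.32, adjusted p = 0.046). The planned block on the replicate numbers of the labels was not run because the columns do not carry them. For let-7b-5p, 15-month counts of 30 to 68 limit the precision.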
